A study of Mus musculus with 8 samples.

Results

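The genes described here are 7 classic model odorant receptors (ORs) of the mouse, chosen by name because each has long served as a test case in work on olfaction: Olfr2 (I7), Olfr6 (M50), Olfr16 (MOR23), Olfr17 (P2), Olfr73 (mOR-EG), Olfr151 (M71) and Olfr160 (M72). The rule that names them uses no measured value, although earlier results of these data were known when they were chosen. Of the 7, 6 had an array row of their own, out of 1035 OR rows and 23410 rows with a gene symbol in all. The only row that names Olfr160 also names Olfr151, so its values are given for that shared row and for neither gene.

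RNA came from the olfactory mucosa of mice of postnatal day 1 on a mixed 129 x C57BL/6J background, with 1 Affymetrix Mouse Gene ST array for each of 8 samples. The 4 conditional knockout samples were 123Cre:Emx2(fl/fl): they carried the 123Cre transgene and 2 floxed alleles of Emx2, which encodes a homeodomain transcription factor. The 4 control samples were littermates with at most 1 allele open to recombination, 2 of them 123Cre:Emx2(fl/+) and 2 of them Emx2(fl/fl) without Cre. Per the study's methods, both sexes were used and every litter that gave knockouts also gave controls, but the labels tie no array to a sex, a litter or a pool. The p-values therefore measure the spread between these samples, and the number of arrays limits the precision. The 123Cre transgene drives recombination once an olfactory sensory neuron (OSN) is immature, so neural progenitors and non-neuronal cells keep Emx2. In the study's reporter mice, 123Cre recombined only a part of the cells in the OSN layers, so some OSNs may keep Emx2 too. Emx2 itself checked the labels: it was at or below 10.01 (log2) in every knockout and at or above 10.72 in every control, a difference of -0.94 ± 0.082 (SE; limma, adjusted p = 0.0014). Markers of the labelled tissue were present in every sample, with Omp (mature OSNs) between 12.80 and 13.07 and Cyp2g1 (sustentacular cells) between 13.99 and 14.08. Lhx2, the other homeodomain factor of the study, differed by 0.00 (adjusted p = 1.0).

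Each OSN transcribes one allele of one OR gene out of a very large family, and the receptor protein serves both to detect odorants in the cilia and to help direct the axon to its glomeruli in the olfactory bulb. OR genes lie in clusters along the chromosomes, and enhancers and short promoters carrying homeodomain and O/E (Ebf) sites take part in their choice. Olfr17 was among the first ORs whose axons were made visible by gene targeting, and they converge on a few glomeruli. Olfr151 and Olfr160 are a closely related pair used for axon sorting and OR replacement experiments, and Olfr151 responds to acetophenone. Olfr2 is known for its response to octanal, Olfr73 for its response to eugenol and Olfr16 for its response to lyral. Olfr6 is a further receptor used as a probe for single OR populations. In whole mucosa, fewer OSNs expressing a receptor and less mRNA per OSN cannot be told apart.

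The first codons of 5 members are shown because ORs share a feature there that the choice of members did not use: near the start of the receptor stands an asparagine codon followed, after any one codon except a proline codon, by a serine or threonine codon, the signal for N-linked glycosylation. They come from RefSeq (GRCm38.p6), are written 5′ to 3′ on the gene's own strand, and run to the end of the reference window. Capitals mark the ATG and the codons of the pattern.
Olfr17, chr7:107097467-107097516, + strand: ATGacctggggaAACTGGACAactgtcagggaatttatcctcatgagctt
Olfr6, chr7:106956885-106956934, - strand: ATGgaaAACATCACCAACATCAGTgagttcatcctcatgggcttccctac
Olfr73, chr2:88035088-88035137, - strand: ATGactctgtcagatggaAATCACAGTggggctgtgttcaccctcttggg
Olfr16, chr1:172956797-172956817, + strand: ATGcagagaaatAACTTCACT
Olfr160, chr9:37712231-37712277, - strand: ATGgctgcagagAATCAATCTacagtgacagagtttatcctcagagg
The pattern began at codon 3 in Olfr6, which held it 2 times in a row, at codon 5 in Olfr16, Olfr17 and Olfr160, and at codon 7 in Olfr73. Among reference windows whose annotated start is an ATG, 654 of 686 OR windows (95.3%) held it, against 59 of 1229 from other genes (4.8%). The windows of Olfr6, Olfr17 and Olfr73 are of this kind. In Olfr16 and Olfr160 the ATG comes 29 and 3 bases after the annotated start, so these shares leave them out. All 5 members held the pattern. The reference table held no window for Olfr2 or Olfr151. The reference gene table (C57BL/6J) lists Olfr151 as a transcribed pseudogene and the other members with a row of their own as protein coding.

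On the 8 arrays, 5 of the 6 measured members had a lower mean in the knockouts than in the controls, and Olfr6 did not. The differences of Olfr17, Olfr73, Olfr16 and Olfr151 lay between -0.59 and -0.39 on the log2 scale, that of Olfr2 was -0.21, and that of Olfr6 was 0.07. None of the 6 passed an adjusted p of 0.05 in limma, where 0.359% of all rows with a symbol and 0.193% of OR rows did. At an unadjusted p of 0.05, 3 of the 6 (Olfr17, Olfr73 and Olfr151) were lower, where 13.5% of OR rows were lower and 15.8% of them passed in either direction (3.06% and 6.1% of all rows). A test with pooled variance and no moderation across rows, on the same values, put 0 of the 6 under either threshold; the study's methods state neither the variance model nor this scaling. In limma the 3 became 0 without control replicate 1, 3 or 4 and 1 without knockout replicate 3. The median difference of the members was -0.40, beside -0.19 over OR rows and 0.00 over all rows. A difference below 0 was common to 76.9% of OR rows and 48.4% of all rows. The knockout and control values overlapped for each of the 6 members, where 6.67% of OR rows and 4.52% of all rows did not overlap (5.31% and 2.54% with the knockouts lower).

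Olfr17 (P2) gave 9.28, 9.08, 9.38 and 9.50 in the 4 controls and 8.69, 8.60, 9.03 and 9.36 in the 4 knockouts. The first 3 knockouts were below every control, and the fourth was within the control range. The means were 9.31 ± 0.18 and 8.92 ± 0.34 (SD, n = 4 each), a change of -23.8% on the linear scale. The difference was -0.39 (95% interval -0.77 to -0.01; limma, unadjusted p = 0.0459, adjusted p = 0.813).

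Olfr73 (mOR-EG) gave 7.97, 7.62, 8.24 and 7.97 in the controls and 7.46, 7.24, 7.90 and 7.57 in the knockouts. Again 3 of the 4 knockouts were below the lowest control, here replicates 1, 2 and 4. The means were 7.95 ± 0.25 and 7.54 ± 0.27, a difference of -0.40 (95% interval -0.77 to -0.03; limma, unadjusted p = 0.0353, adjusted p = 0.784), or -24.5% on the linear scale.

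Olfr16 (MOR23) had a difference of the same size but wider spread. Its controls gave 8.26, 7.58, 8.49 and 8.16 and its knockouts 7.59, 7.32, 7.79 and 8.04. Control replicate 2 was as low as the knockouts, and only knockout replicate 2 was below it. The means were 8.12 ± 0.39 and 7.68 ± 0.31, and the interval of the difference, -0.44 (-0.92 to 0.04; limma, unadjusted p = 0.0672, adjusted p = 0.843), included 0.

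Olfr151 (M71) had the most negative mean difference of the 6, and in each group 1 value stood apart from the rest. The controls gave 6.51, 5.54, 6.47 and 6.53 and the knockouts 5.91, 5.58, 5.59 and 5.62. Of the controls 3 lay above every knockout, whereas control replicate 2 lay below all 4 knockouts. The means were 6.26 ± 0.49 and 5.68 ± 0.16, a difference of -0.59 (95% interval -1.08 to -0.09; limma, unadjusted p = 0.0248, adjusted p = 0.759). Without control replicate 2 the difference was -0.83 with an adjusted p of 0.0197 (limma), the one setting among its alternatives that passed (adjusted p from 0.0197 to 1.0). Its row is in the dimmest 30% of rows with a symbol. Every control and every knockout value lay below the lower quartile of its own array. That quartile, rows without a symbol included, was between 6.45 and 6.62 over the arrays.

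The row shared by Olfr151 and Olfr160 (M72), which is also in the dimmest 30% of rows with a symbol, did not repeat these values. It gave 7.94, 7.35, 7.50 and 7.55 in the controls and 6.93, 7.27, 7.62 and 7.44 in the knockouts. Knockout replicates 1 and 2 were below all controls and the other two were inside their range. The means were 7.59 ± 0.25 and 7.31 ± 0.30, a difference of -0.27 ± 0.17 (SE; limma, unadjusted p = 0.143, adjusted p = 0.929).

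Olfr6 (M50) was the one member without a lower mean. The controls gave 8.76, 8.56, 9.01 and 9.06, and the knockouts 9.07, 8.0, 9.20 and 9.40. In this gene 3 knockouts lay above every control and knockout replicate 2 lay below every control. The means were 8.85 ± 0.23 and 8.92 ± 0.63, and the interval of the difference, 0.07 (-0.57 to 0.70; limma, unadjusted p = 0.816, adjusted p = 1.0), reaches past the differences of Olfr17, Olfr73 and Olfr16 as well as 0. Without knockout replicate 2 the difference was 0.37 (limma, unadjusted p = 0.0242, adjusted p = 0.423).

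Olfr2 (I7) varied least among the controls, at 7.28, 7.41, 7.52 and 7.29. The knockouts gave 7.46, 6.78, 7.09 and 7.30, so that 2 were below every control and 2 were within their range. The means were 7.37 ± 0.12 and 7.16 ± 0.29, a difference of -0.21 (95% interval -0.53 to 0.11; limma, unadjusted p = 0.163, adjusted p = 0.943), and -0.088 without knockout replicate 2. Like Olfr151 and the shared row, Olfr2 is in the dimmest 30% of rows with a symbol.

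**Figure D1:**
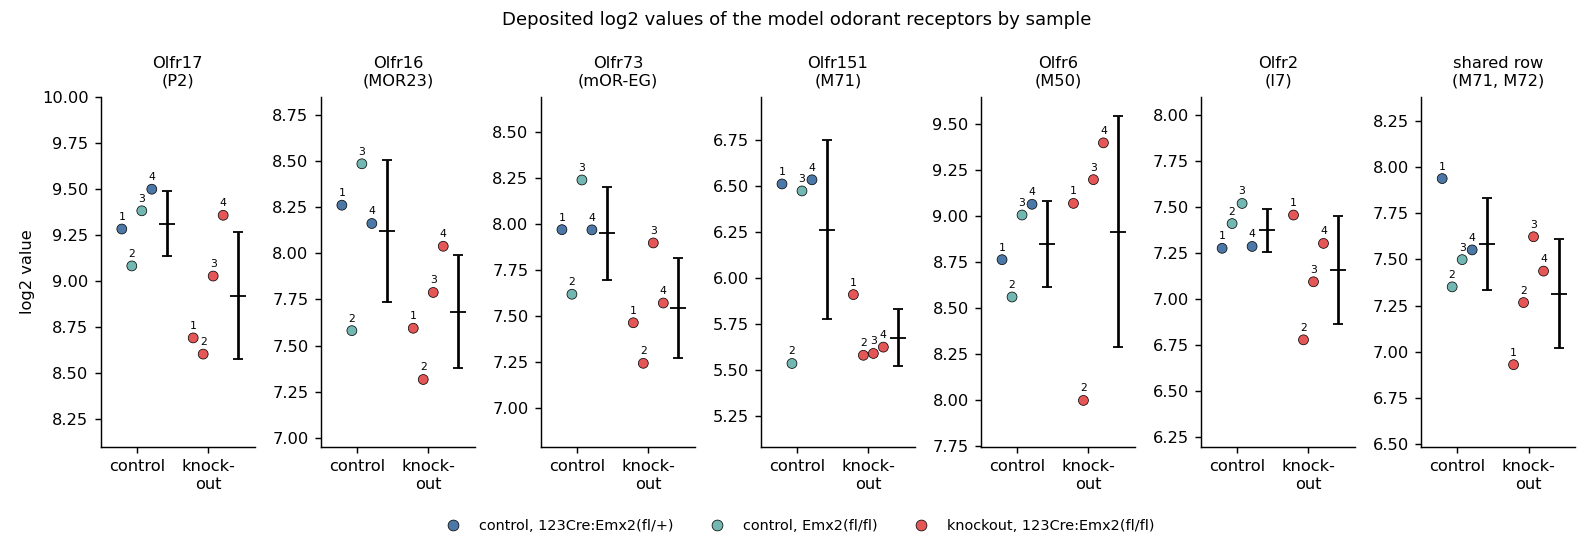
Log2 value (vertical axis) of each measured model receptor, and of the row shared by Olfr151 and Olfr160, in the 4 control and the 4 knockout samples, one panel per row with its own scale, with each sample as a point and the group mean ± SD beside it. For Olfr17 and Olfr73, 3 knockouts lie below every control; for Olfr151, 3 controls lie above every knockout; for Olfr6, 3 knockouts lie above every control; the groups overlap in every panel.

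**Figure D2:**
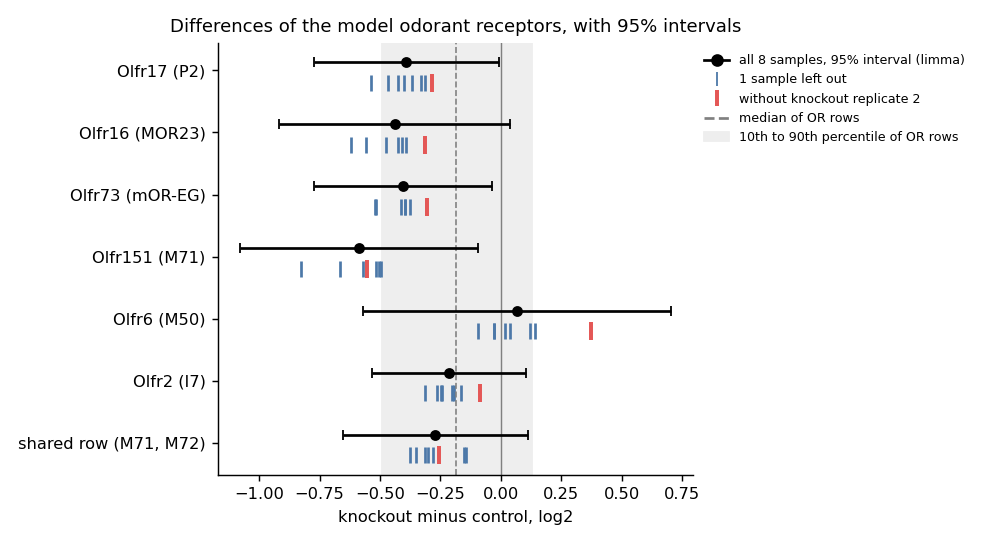
Knockout minus control on the log2 scale for each measured member and the shared row, with the 95% interval from limma, set beside the spread of all OR rows. The intervals of Olfr17, Olfr73 and Olfr151 lie below 0 and the others include it. The grey band from the 10th to the 90th percentile of OR rows runs from -0.49 to 0.13, the dashed line is the median of OR rows (-0.19), and the ticks give each difference with 1 sample left out, the red tick without knockout replicate 2 (0.37 for Olfr6).

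Sample by sample, 1 array stood apart in the same direction for the members and for ORs as a family. Knockout replicate 2 was the lowest knockout for all 6 members and the lowest of all 8 samples for 5 of them, Olfr151 being the exception. The mean of all OR rows was 6.97 in that sample, between 7.28 and 7.67 in the other knockouts and between 7.30 and 7.69 in the controls, with a difference between groups of -0.18. Without knockout replicate 2 that difference was -0.049, and without knockout replicate 4 it was -0.28. Without knockout replicate 2 the members differed by -0.29 (Olfr17), -0.30 (Olfr73), -0.32 (Olfr16) and -0.55 (Olfr151), and the 2 with an unadjusted p under 0.05 in limma were Olfr151, lower, and Olfr6, higher. Deviations from the group mean over the 8 samples followed those of the OR mean closely for Olfr6 (r = 0.928), Olfr17 (r = 0.928), Olfr16 (r = 0.887) and Olfr73 (r = 0.815), and less so for Olfr2 (r = 0.459) and Olfr151 (r = 0.418). The 8 points share their arrays and the OR mean contains each member's own row, so these values are descriptions.

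Set against the OR mean of its own array, each member could be read relative to its family. Olfr17 then lay 1.74, 1.78, 1.69 and 1.83 above the OR mean in the controls and 1.41, 1.63, 1.47 and 1.69 above it in the knockouts. These groups no longer overlapped, although the highest knockout and the lowest control both round to 1.69. On this scale 9.76% of OR rows and 2.9% of all rows did not overlap, and among the members Olfr17 was the only one. Olfr6 lay 1.22, 1.26, 1.31 and 1.39 above the OR mean in the controls and 1.79, 1.03, 1.64 and 1.73 above it in the knockouts. Relative to the family, then, 3 knockouts were again above all controls for Olfr6 and replicate 2 again below them. With the arrays centred on the OR mean, which moves the median of all rows by 0.18, the differences were -0.21 for Olfr17, -0.22 for Olfr73, -0.26 for Olfr16, -0.41 for Olfr151, -0.03 for Olfr2 and 0.25 for Olfr6. None of the 6 then had an unadjusted p under 0.05 in limma.

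**Figure D3:**
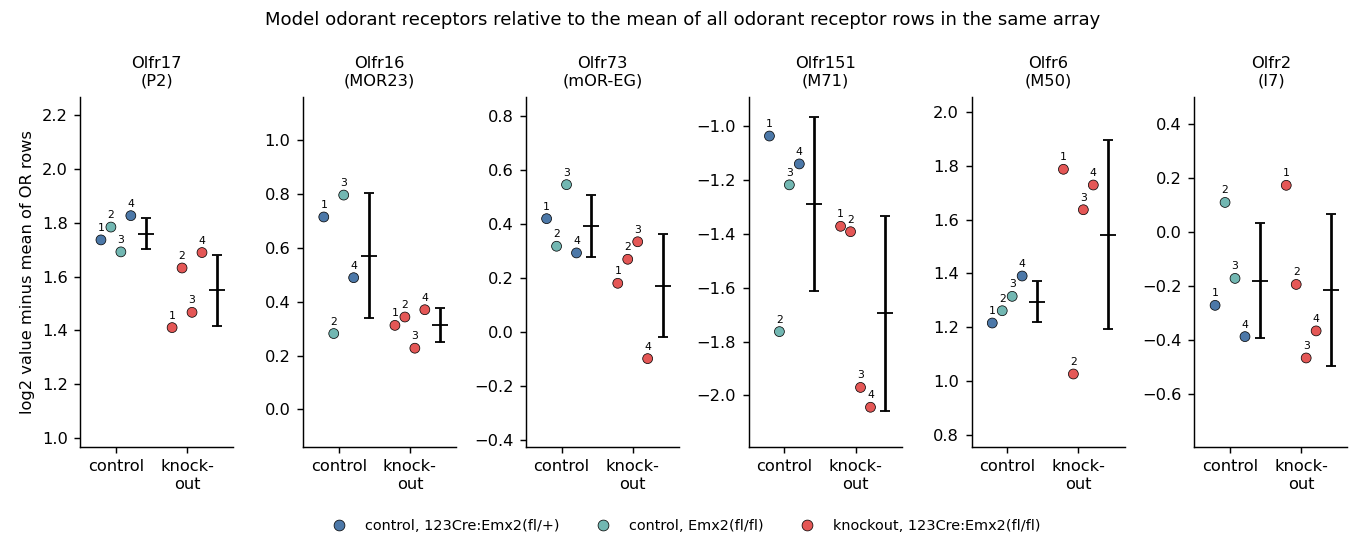
Log2 value of each measured member minus the mean of all OR rows on the same array (vertical axis), for each control and knockout sample, with the group mean ± SD beside the points and a scale of its own in each panel. Olfr17 in the knockouts (1.41 to 1.69) lies below every control, by less than the rounding for the highest knockout, and Olfr6 in 3 knockouts (1.64 to 1.79) lies above the highest control (1.39).

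The arrays carry numbers in their titles, 1 to 4 and 5 to 8, and each set holds 2 knockouts and 2 controls, 1 of either control genotype. Olfr17 differed by -0.53 in the first set and by -0.25 in the second, and Olfr73 by -0.44 and -0.37. Olfr16 had -0.47 and -0.41, and Olfr2 had -0.23 and -0.20. The share of OR rows or of all rows that were lower in both sets was not counted. With all 8 samples, 76.9% of OR rows had a difference below 0, so lower means in both sets are not read as particular to these members. Olfr151 differed by -0.28 in the first set and -0.90 in the second. Olfr6 changed sign between the sets, from -0.13 to 0.26, and the shared row went from -0.55 to 0.00. With the 2 sets as a block, limma gave Olfr17 an unadjusted p of 0.0045 (adjusted p = 0.274) and Olfr73 0.0074 (adjusted p = 0.336). The block also put Olfr16 under 0.05 (unadjusted p = 0.0201, against 0.0672 without it; adjusted p = 0.468), with Olfr151 at 0.0226 (adjusted p = 0.482), so that the count at an unadjusted p rose from 3 to 4 of 6. The labels do not say what the title numbers stand for.

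The control group holds 2 genotypes, and a fit of all 3 genotypes compared the knockouts with each of them. Against 123Cre:Emx2(fl/+), which shares the Cre, Olfr151 differed by -0.85 (95% interval -1.39 to -0.30; limma, unadjusted p = 0.00736, adjusted p = 0.883), and against Emx2(fl/fl) by -0.33 (-0.87 to 0.22). Control replicate 2, the low sample for Olfr151, is an Emx2(fl/fl) sample. For Olfr17 the differences were -0.47 and -0.31, for Olfr16 -0.53 and -0.35, and for Olfr73 -0.42 and -0.38. These 4 members were thus lower on average than either kind of control. Olfr2 gave -0.12 and -0.31, and Olfr6 0.00 and 0.13. Between the control genotypes themselves Olfr151 differed by 0.52 (limma, unadjusted p = 0.0937, adjusted p = 0.997) and the other 5 by -0.18 to 0.18. No row of the table passed an adjusted p of 0.05 between the control genotypes.

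Because OR genes are clustered, the nearest measured OR on either side of each member, at most 1 Mb away in the reference order, was read from the same fit. Olfr6, Olfr2 and Olfr17 lie in 1 cluster on chromosome 7. Next to Olfr17, Olfr714 differed by -0.38 ± 0.11 (SE; limma, unadjusted p = 0.00689, adjusted p = 0.479), close to the -0.39 of Olfr17, and Olfr715b by -0.19. Between Olfr6 and Olfr2 lies Olfr711, at 0.21, with Olfr710 at 0.02 and Olfr713 at 0.09 on their outer sides. Over the 20 other ORs within 500 kb of the 3 members, 13 were below 0, the median was -0.09 and the range was -0.38 to 0.21. None of these 20 was lower than Olfr17, and 3 were lower at an unadjusted p of 0.05, with none higher: Olfr714 and, named after their values were seen, Olfr703 (-0.35) and Olfr697 (-0.27). Over all OR rows, 76.9% were below 0 and 13.5% were lower at that p, so these counts do not set the cluster apart.

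**Figure D4:**
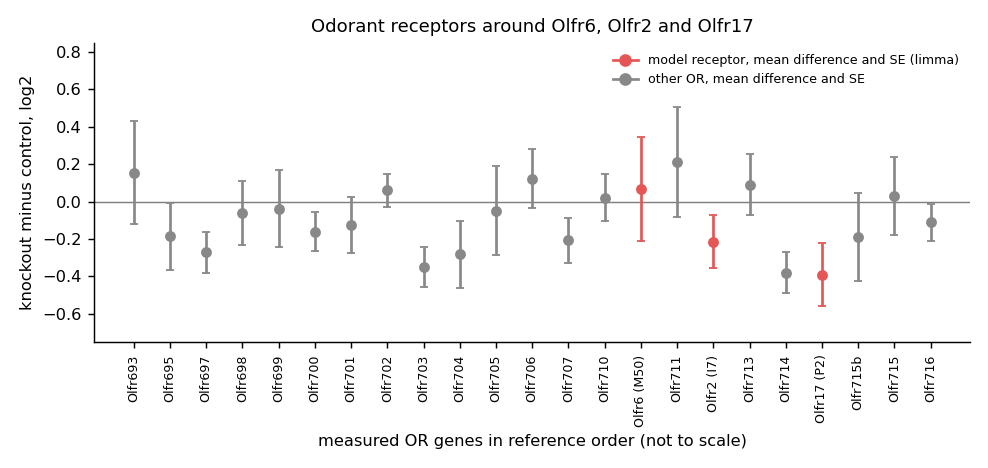
Knockout minus control (log2, mean and SE from limma) for the measured ORs within 500 kb of Olfr6, Olfr2 or Olfr17, in reference gene order and not to scale; members are in red. Olfr17 (-0.39) and its neighbour Olfr714 (-0.38) are the lowest, and Olfr711 (0.21), next to Olfr6 (0.07), is the highest.

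Olfr16 lies on chromosome 1 among few ORs. Its nearest measured neighbour, Olfr1408, differed by -0.39 (limma, unadjusted p = 0.224, adjusted p = 0.979), and all 5 other ORs within 500 kb were below 0, with a median of -0.37. Olfr73 lies on chromosome 2 among 42 ORs within 500 kb, of which 37 were below 0 (median -0.24) and 2 were lower than Olfr73. Its neighbours Olfr1161 and Olfr1163 differed by -0.18 and -0.35. Around Olfr151, on chromosome 9, 13 of 15 ORs were below 0 (median -0.24), none was lower than Olfr151, and its neighbour Olfr874 differed by -0.29. These counts stand beside 76.9% of all OR rows below 0, with a median of -0.19. Apart from Olfr714, none of the nearest neighbours had an unadjusted p under 0.05. Of the 5 ORs around Olfr16, 1 was lower than Olfr16 and 1 was lower at an unadjusted p of 0.05 in limma. None was lower at that p around Olfr73 or Olfr151, where 13.5% of all OR rows were.

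Among themselves the members varied together to different degrees. Over the 8 deviations from group means, Olfr16 was most like Olfr73 (r = 0.822) and Olfr17 (r = 0.799), Olfr6 was like Olfr17 (r = 0.795), and Olfr2 and Olfr151 were least alike (r = 0.125). Over all other rows with 1 symbol, the closest to Olfr17 were Map7d2 (r = 0.993) and Olfr173 (r = 0.992), and to Olfr6 Enah and Wnk1 (both r = 0.998), with Olfr1263 the closest OR (r = 0.995). Olfr2 was closest to Olfr1348 (r = 0.989) and Srp9 (r = 0.975). The closest to Olfr16 were C030034I22Rik (r = 0.989), Ddx58 (r = 0.984) and, among ORs, Olfr1040 (r = 0.983). Olfr73 was closest to Cdh19 (r = 0.982) and Pdhx (r = 0.977), with Olfr618 (r = 0.975) among ORs. Olfr151 had the weakest best matches, 1700057G04Rik (r = 0.969), Sfrp1 (r = 0.957) and Olfr631 (r = 0.955). Each r rests on 8 points from shared arrays, and the search covered 21788 other rows.

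The upstream sequence was searched for the letters of the sites that OR promoters are known for. In the RefSeq windows of 250 bases before to 50 after the annotated start, on both strands, the homeodomain letters TAATTA were found in 0 of 5 members, in 18.6% of OR windows and in 5.29% of all windows. The letters TAATTG were found in 0 of 5 members, in 23.2% of OR windows and in 8.0% of all windows. The O/E core, CCC and GGG separated by 2 bases, was likewise absent from the 5 members, at 3.06% of OR windows and 13.7% of all. In 72.4% of OR windows the annotated start is the ATG itself, so these windows often end just past the coding start rather than the start of transcription, and no match says only that these letters are not in them.

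The other genes that a receptor depends on were read from lists. Over all rows with a symbol, 48.4% were below 0. At an unadjusted p of 0.05 in limma, 3.06% of them were lower and 6.1% passed in either direction. Of 18 regulators of OR choice, 1 passed an adjusted p of 0.05, the deleted Emx2, and no other had an unadjusted p under 0.05; the median was -0.08. Of 6 OR trafficking genes, all were below 0 (median -0.08), and Rtp2, which helps bring ORs to the cell surface, differed by -0.40 (limma, unadjusted p = 0.000661, adjusted p = 0.128). Of 18 listed genes of olfactory transduction, the cascade that ORs start, 16 were measured and none passed the adjusted threshold (median -0.04). At an unadjusted p of 0.05, 2 of them were lower, the chloride channel Ano2 (-0.35, adjusted p = 0.116) and the channel subunit Cngb1 (-0.25, adjusted p = 0.618), and the channel subunit Cnga4 was higher (0.27, adjusted p = 0.771). Of 22 axon targeting genes, through which the receptor's identity reaches the bulb, none passed the adjusted threshold and the median was -0.11. The values were -0.30 for Cntn4, -0.28 for Kirrel2 and -0.28 for Slit1, and the one with an unadjusted p under 0.05 was Efna5 at -0.24 (adjusted p = 0.532), named after its value was seen.

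The OSN marker lists also had medians below 0, nearer to 0 than the receptors' median. The counts here stand beside 48.4% of all rows below 0. At an unadjusted p of 0.05 in limma, 3.06% of all rows were lower and 6.1% passed in either direction. Of 20 mature OSN genes, 15 were below 0 (median -0.10). At an unadjusted p of 0.05, 4 were lower (S100a5, Rtp2, Ano2 and Cngb1) and 1 was higher (Cnga4). The mature list shares many genes with the trafficking and transduction lists, and of these named genes only S100a5 is not in them. S100a5 differed by -0.52 (adjusted p = 0.308) and Omp by -0.06 (adjusted p = 1.0). Of 15 immature OSN genes, 14 were below 0 (median -0.14) and 4 were lower at an unadjusted p of 0.05: Nhlh2 (-0.35), Trib3 (-0.25), Gap43 (-0.23, adjusted p = 0.564) and Stmn2 (-0.21, named after its value was seen). The mean level of the mature list was 11.41 to 11.55 in the knockouts and 11.53 to 11.64 in the controls, and that of the immature list 11.15 to 11.32 and 11.27 to 11.46. All 8 genes of respiratory ciliated cells were above 0 (median 0.23), with list means of 10.23 to 10.56 against 10.10 to 10.31, and Tmem212 (0.36) and Dnah9 (0.32) had an unadjusted p under 0.05. Of 8 genes of olfactory bulb and brain, 7 were below 0 (median -0.14), with list means of 7.50 to 7.80 against 7.58 to 8.11, and Slc17a7 (-0.41) had an unadjusted p under 0.05. The medians were -0.03 for 8 genes of basal cells, 0.04 for 7 of sustentacular cells and 0.06 for 7 of leukocytes, with no gene of these 3 lists under an unadjusted p of 0.05. None of these marker genes passed an adjusted p of 0.05. With each array centred on the mature list, which moves the median of all rows by 0.11, 1 of the 6 receptors had an unadjusted p under 0.05. The part of these cell types in the receptor values was not tested.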

How the data were processed

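The values used are log2 values per transcript cluster, deposited by the authors. Affymetrix Expression Console is the tool in the submitters' processing notes, with no background correction or normalization method stated. The table has 35557 rows, of which 23410 carry a gene symbol in the platform annotation. The members are matched by symbol, and only rows with 1 symbol are read as a gene.

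All rows with a symbol were fitted with limma 3.58.1 in R 4.3.3 (two-sided lmFit and eBayes) as knockout against control without covariates, with Benjamini-Hochberg adjustment over these rows. The script was tested on simulated data. The receptors and lists were chosen with earlier results of these data known. Besides the members, genes were named by rule: Emx2, Lhx2, Omp and Gap43, the best correlated rows, the nearest ORs, and up to 3 genes per list with the largest absolute difference. Alternatives covered the test, scaling, filters, variance model, array weights, title numbers, control genotype and each sample left out.

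The planned comparison with relatives by protein sequence was not run.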

Additional observations from a re-analysis of the deposited data

Results flagged for a closer look

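For 14 sets of 4 samples (6 members and the shared row in each group), the highest or lowest sample's gap to its nearest neighbour was divided by the range of the set. Chance alone puts about 1 set in 20 past the 95% critical value of Dixon's test. Both sets past it were of Olfr151: control replicate 2, at 5.54, was far below the other controls (gap over range 0.939), and knockout replicate 1, at 5.91, was far above the other knockouts (0.866).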

How the results depend on the processing

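Over 130 recomputed differences of the 6 members, 125 kept their direction and their side of an adjusted p of 0.05, 4 changed sign and 1 passed. All 4 that changed sign were of Olfr6: -0.13 within title numbers 1 to 4, -0.029 without control replicate 2, -0.027 without knockout replicate 3 and -0.093 without knockout replicate 4. The shared row was 0.0046 within title numbers 5 to 8 (its alternatives were added after the data were seen). The block of title numbers and quantile normalization each gave 4 at an unadjusted p, with Olfr16 added. That count was 2 centred on the median of rows that are not ORs, with all rows tested and within title numbers 1 to 4. It was also 2 with the dimmest 30% of rows left out, where 4 members were tested. With array weights it stayed at 3, with Olfr16 in place of Olfr17. Leaving out 1 sample at a time gave -0.83 to -0.50 for Olfr151, whose -0.83 without control replicate 2 was the one that passed, and -0.093 to 0.37 for Olfr6. It gave -0.54 to -0.29 for Olfr17, -0.52 to -0.30 for Olfr73, -0.62 to -0.32 for Olfr16 and -0.31 to -0.09 for Olfr2.

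The count past an adjusted p was 0 to 1 over the samples left out, the 1 being Olfr151 without control replicate 2. The count at an unadjusted p, 3 of 6, was 0 by a pooled-variance t-test on the same values (the kind of test the study's methods name, without their mature OSN normalization), 1 centred on mature OSN genes, 0 centred on the mean of OR rows, 1 within title numbers 5 to 8, 0 against Emx2(fl/fl) alone, and 0 to 4 over the samples left out. It was 0 without control replicate 1, 3 or 4 and 1 without knockout replicate 3. The count of members lower in the knockouts was 3 with the dimmest 30% of rows left out, since only 4 members were then tested. The cause of the other changes was not tested. No paired analysis was possible because the labels give no replicate numbers that the groups share.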
